A study of Rattus norvegicus with 23 samples.

Results

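The miR-34 family was followed in rat PC12 cells, a pheochromocytoma line often used as a model of neuron-like cells. Every entry of the sRNAbench table of read counts whose name begins with rno-miR-34a, rno-miR-34b or rno-miR-34c was taken. This gave 5 of 413 entries: both arms of miR-34a, both arms of miR-34b and the 5p arm of miR-34c. Only rno-miR-34a-5p and rno-miR-34c-5p (below miR-34a-5p and miR-34c-5p) had enough reads for testing, 2 of the 269 tested miRNAs, and the other 3 entries are described by their reads. The cells had been transfected with pcDNA3 carrying α1ACT, a transcription factor encoded within the calcium channel gene CACNA1A, with 11 glutamine repeats and a C-terminal Flag tag, or with empty pcDNA3. Both lines had undergone G418 selection as stable clones, and how many clones make up each line is not stated. Both lines were harvested at 4 times after splitting (6 h, 24 h, 3 d, 10 d), giving 23 libraries: 2 for vector cells at 6 h and 3 for every other group. Whether replicates came from separate cultures is not stated, and p-values measure only how far these libraries spread, which may be technical. α1ACT itself was not measured by small RNA sequencing, and the line names rest on reading columns headed control as vector and WT as α1ACT.

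A microRNA is cut from a hairpin precursor, and one of its arms is loaded into Argonaute, where the seed near the 5′ end pairs with target transcripts. The miR-34 genes are textbook transcriptional targets of p53, and their 5p arms restrain cell cycle and survival genes such as Cdk6, Ccnd1, Met, Bcl2 and the deacetylase gene Sirt1. Mir34a stands alone in the genome, whereas Mir34b and Mir34c come from a shared primary transcript. In neurons the family has been linked to differentiation and stress responses.

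The mature sequences are shown because the family is defined by its seed, here in capitals (bases 2 to 8 from the 5′ end, RefSeq, assembly GRCr8).
miR-34a-5p: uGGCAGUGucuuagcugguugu
miR-34b-5p: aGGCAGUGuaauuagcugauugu
miR-34c-5p: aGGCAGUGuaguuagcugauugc
miR-449a-5p: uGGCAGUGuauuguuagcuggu
miR-449c-5p: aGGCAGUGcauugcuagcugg
Among 693 mature rat miRNAs in the RefSeq table, only these 5 had the seed GGCAGUG. The 34c and 34b 5p arms were identical at 21 of 23 bases and differed by G11A and C23U, with the base of miR-34c-5p first and positions counted from the 5′ end. In an alignment with 1 gap, miR-34a-5p and miR-34c-5p matched at 18 of 23 columns. The opposite arms carried other seeds, and those of miR-34b-3p and miR-34c-3p were the same.
miR-34a-3p: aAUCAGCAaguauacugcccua
miR-34b-3p: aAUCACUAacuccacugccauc
miR-34c-3p: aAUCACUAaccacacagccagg
The precursor hairpins show where both arms sit, with the mature arms in capitals.
Mir34a: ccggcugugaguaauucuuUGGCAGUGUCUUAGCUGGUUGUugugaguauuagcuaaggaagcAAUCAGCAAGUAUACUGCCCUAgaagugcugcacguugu
Mir34b: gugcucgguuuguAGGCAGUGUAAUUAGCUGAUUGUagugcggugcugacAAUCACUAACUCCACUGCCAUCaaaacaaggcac
Mir34c: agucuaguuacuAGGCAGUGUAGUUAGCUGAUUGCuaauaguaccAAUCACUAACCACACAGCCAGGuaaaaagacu
In GRCr8, Mir34a lay on the plus strand at chr5:165815952-165816053, within the long non-coding RNA gene LOC103692514. Mir34b (chr8:60306609-60306692) and Mir34c (chr8:60306091-60306167) lay on the minus strand with 441 bases between them. Mir34c was within the protein-coding gene Hoatz and Mir34b partly within it. These positions only place the genes, since no build is named for the counts.

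Nearly all reads of the family came from 2 of the 5 entries. Of 7714 family reads in the 23 libraries, miR-34a-5p took 3818 (49.5%) and miR-34c-5p 3760 (48.7%). The remaining entries were rare: miR-34b-5p had 76 reads in 17 libraries, miR-34b-3p had 49 in 18 libraries, and miR-34a-3p had 11 in 4 libraries. Thus miR-34c-5p and its cluster partner miR-34b-5p were very unequal, although their sequences are close enough that reads could be assigned to either. The alternative count table, made with Chimira, gave a like makeup of its 8456 family reads, with 48.8% for miR-34a-5p and 45.9% for miR-34c-5p. It listed miR-34a-3p far more often, with 281 reads in all 23 libraries, and added miR-34c-3p with 8 reads. The sRNAbench table had 0 entries for the miR-449 relatives, so it gives no level for them.

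By mean level the 2 main members were mid-range miRNAs of these cells. In library-scaled read counts (CPM, with TMM factors between libraries), miR-34a-5p averaged 64.8 and miR-34c-5p 63.0 CPM, and the median tested miRNA had 79.7 CPM. Library totals ran from 448557 counts (vector line, 3 d, replicate 1) to 5070120. The shallowest library rested on 44 reads of miR-34a-5p and 32 of miR-34c-5p. Its unscaled miR-34a-5p level of 98.1 CPM had a 95% Wilson interval of 73.1 to 132. This covers counting error only, and the counts do not show which reads are copies of the same molecule. In the deepest library, with 350 reads, the level of 69.0 CPM had an interval of 62.2 to 76.7. A pair of vector libraries needs care throughout: the columns for 6 h replicate 2 and 10 d replicate 2 matched each other, not themselves, between the count tables, while the other 21 of 23 columns matched their own names. The sRNAbench naming is used here, and the other assignment is given beside the results it moves most.

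miR-34c-5p was higher in the α1ACT line at every time. These are bulk libraries, in which more cells with the miRNA and more miRNA per cell cannot be told apart. At 6 h it measured 44.9 and 32.9 CPM in the vector line and 68.7, 49.1 and 69.5 CPM in the α1ACT line. At 24 h the vector libraries had 58.7, 44.9 and 52.7 CPM and the α1ACT libraries 75.2, 67.7 and 77.5 CPM. Neither time showed any overlap between the lines. At 3 d the values were 71.7, 50.3 and 65.9 CPM against 86.7, 77.6 and 85.0 CPM, and at 10 d they were 56.9, 49.9 and 60.7 CPM against 65.9, 71.6 and 65.0 CPM. At single times 14.9%, 8.18%, 6.32% and 10.8% of tested miRNAs were separated this way from 6 h to 10 d. The lowest α1ACT library thus lay above the highest vector library at each of the 4 times. Of all tested miRNAs, 0.743% (2 of 269) showed that pattern, miR-34c-5p and miR-181a-5p. With the doubtful vector pair exchanged, miR-34c-5p kept the separation at 3 of the 4 times, since the lines then overlapped at 6 h.

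miR-34a-5p was also higher on average in the α1ACT line, but its libraries overlapped at some times. At 6 h it measured 41.0 and 37.8 CPM in the vector line and 60.3, 55.2 and 60.7 CPM in the α1ACT line, with no overlap. At 24 h the lines overlapped, with 53.6, 49.0 and 59.9 CPM against 61.1, 57.9 and 69.9 CPM. At 3 d both lines held their highest values, 98.6, 56.4 and 84.1 CPM in the vector line and 95.2, 69.4 and 97.1 CPM in the α1ACT line, and the ranges again overlapped. Replicate 2 was the low library in both lines at 3 d. At 10 d the vector libraries had 58.2, 43.7 and 65.3 CPM and the α1ACT libraries 67.0, 75.5 and 72.7 CPM, which did not overlap. miR-34a-5p therefore separated the lines at 6 h and 10 d, 2 of the 4 times. At those times 14.9% and 10.8% of all tested miRNAs were separated in the same way, with only 2 vector libraries at 6 h.

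**Figure D1:**
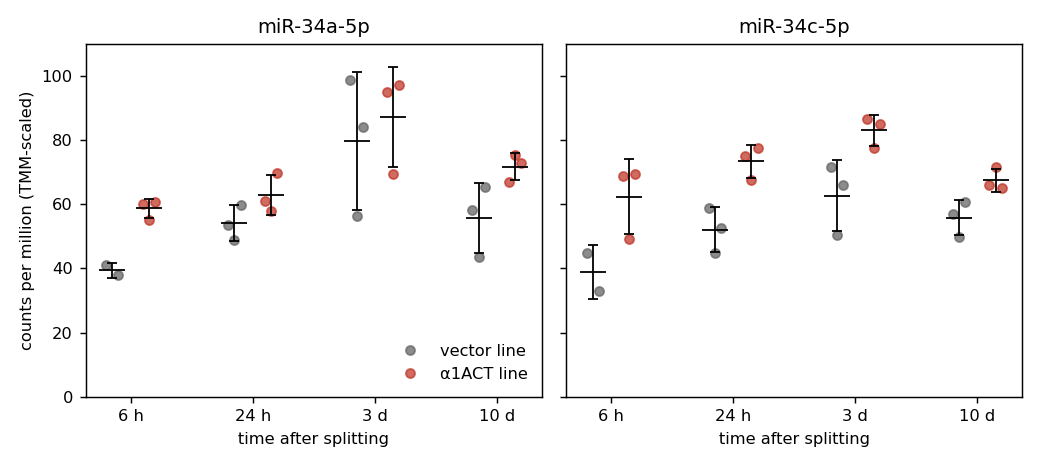
Each point is 1 library, in TMM-scaled CPM (y axis) at each time after splitting (x axis), and black bars give the mean and SD of a group. For miR-34c-5p every α1ACT library lies above every vector library of the same time, while for miR-34a-5p the lines overlap at 24 h and 3 d.

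The main question of the design is whether stable α1ACT expression goes with another miRNA level. Construct and line go together here, so an effect of α1ACT cannot be told apart from other differences between the lines or their clones. Averaged over the 4 times, miR-34c-5p was 1.39-fold higher in the α1ACT line (log2 fold change 0.47, SE 0.09) and miR-34a-5p was 1.26-fold higher (0.33, SE 0.09). Both passed the edgeR quasi-likelihood test, adjusted by Benjamini-Hochberg over all 269 miRNAs, with adjusted p = 0.000391 for miR-34c-5p and 0.0214 for miR-34a-5p. In that comparison 12.6% of miRNAs were called, 18 higher (6.69%) and 16 lower (5.95%), and the median log2 fold change of all tested miRNAs was 0.00093. Over all libraries of a line, miR-34c-5p had 71.6 ± 10.0 CPM in the α1ACT line (SD, n = 12) and 53.6 ± 10.8 CPM in the vector line (n = 11). miR-34a-5p had 70.2 ± 13.6 CPM and 58.9 ± 18.4 CPM, an SD that includes the change with time. The summed level of the 3 expressed 5p arms with the family seed was 143.2 ± 22.3 CPM against 113 ± 28.6 CPM.

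The call for miR-34c-5p was made under each of the 36 alternative settings run, with log2 fold changes between 0.40 and 0.56. The call for miR-34a-5p rested in part on the doubtful vector pair. With the pair exchanged its log2 fold change was 0.32 (edgeR adjusted p = 0.0625), and with both libraries left out it was 0.28 (edgeR adjusted p = 0.108). Without vector 6 h replicate 2 alone it was 0.31 (edgeR adjusted p = 0.0535). In the Chimira table, where the columns carry the other assignment, miR-34a-5p was called at 0.32 (edgeR adjusted p = 0.0318), against a background of 6.23% called.

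**Figure D2:**
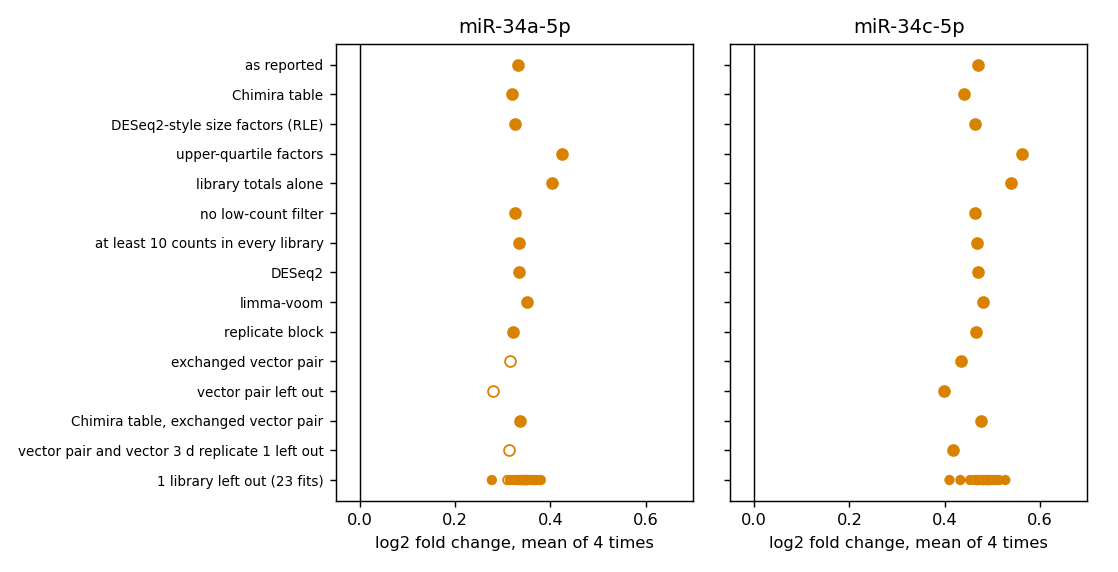
Log2 fold change of the α1ACT line over the vector line, mean of 4 times (x axis), under each setting (rows), with filled points where the adjusted p was under 0.05. All points lie above 0, and those of miR-34c-5p are all filled. miR-34a-5p has open points with the doubtful vector pair exchanged in the sRNAbench table, with it left out, and without vector 6 h replicate 2. With the pair exchanged in the Chimira table its point is filled.

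At single times the difference was of the same direction for both miRNAs but passed the adjusted threshold for neither. From the earliest to the latest time the log2 fold change of miR-34c-5p was 0.68, 0.49, 0.44 and 0.27, with edgeR adjusted p between 0.220 and 0.495. That of miR-34a-5p was 0.57, 0.22, 0.17 and 0.36 at the same times, with edgeR adjusted p between 0.339 and 0.899. Calls were scarce at single times: 0% of all miRNAs at 6 h, 0.372% at both 24 h and 3 d, and 1.49% at 10 d. At 6 h, where edgeR called 0 miRNAs, 30 had an unadjusted p under 0.05, DESeq2 called 3 and limma-voom 0. The 6 h and 10 d values each hold 1 library of the doubtful pair. In miR-34c-5p the exchange gave 0.40 at 6 h and 0.42 at 10 d, leaving the pair out gave 0.43 and 0.23, and the Chimira table gave 0.35 and 0.47. In miR-34a-5p the exchange gave 0.47 and 0.41, and leaving the pair out gave 0.47 and 0.25. None of these was called. At 6 h miR-34c-5p was called under 2 of 37 alternatives. It was 0.83 without α1ACT 6 h replicate 2 (edgeR adjusted p = 0.0179). With upper-quartile scaling, where the median of all miRNAs moved to 0.22, it was 0.88 (edgeR adjusted p = 0.0484). The 3 d value of miR-34a-5p leaned on 1 library, at -0.047 without vector 3 d replicate 2.

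**Figure D3:**
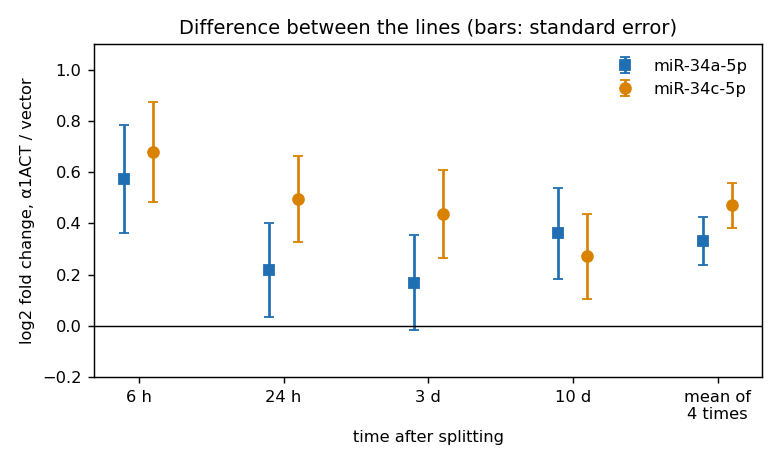
Log2 fold change of the α1ACT line over the vector line (y axis) for the single times and for their mean (x axis), with bars of 1 standard error. All values are above 0, from 0.17 for miR-34a-5p at 3 d to 0.68 for miR-34c-5p at 6 h.

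The interaction of line and time tests whether the line difference changed over the times. It gave edgeR adjusted p = 1.00 for both miRNAs, and 0% of miRNAs were called. Among all 269, 10 had an unadjusted p under 0.05, DESeq2 called 2 and limma-voom 0. The fall of the miR-34c-5p difference from 0.68 at 6 h to 0.27 at 10 d was thus not called. It was not seen with the vector pair exchanged (0.40 and 0.42) or in the Chimira table, which carries that assignment (0.35 and 0.47). A fall was seen with the pair left out (0.43 and 0.23) and with the pair exchanged in the Chimira table (0.64 and 0.32).

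Time after splitting moved miR-34a-5p within each line. Its mean in the vector line was 39.4 ± 2.25 CPM at 6 h (SD, n = 2) and, with n = 3 each, 54.2 ± 5.48 CPM at 24 h, 79.7 ± 21.5 CPM at 3 d and 55.7 ± 11.0 CPM at 10 d. In the α1ACT line it was 58.7 ± 3.06, 63.0 ± 6.22, 87.2 ± 15.5 and 71.8 ± 4.31 CPM. The edgeR F test over the 4 times gave adjusted p = 0.00506 in the vector line, where 36.8% of all miRNAs were called, and 0.0454 in the α1ACT line, where 42.4% were called. The change of miR-34a-5p was thus one among many. The vector call was lost when the doubtful pair and the shallow 3 d library were left out together (adjusted p = 0.114), and the α1ACT call was lost under 16 of 37 alternatives, among them upper-quartile scaling (adjusted p = 0.236) and the Chimira table (adjusted p = 0.0721).

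miR-34c-5p was likewise highest at 3 d in both lines. Its mean was 38.9 ± 8.50, 52.1 ± 6.96, 62.6 ± 11.1 and 55.8 ± 5.49 CPM over the same times in the vector line. In the α1ACT line it was 62.4 ± 11.6, 73.5 ± 5.15, 83.1 ± 4.85 and 67.5 ± 3.56 CPM. The F test over times missed the threshold in the vector line (edgeR adjusted p = 0.0520) and in the α1ACT line (0.163). The vector test passed under 15 of 37 alternatives and gave 0.589 with the vector pair exchanged, 0.559 with it left out and 0.592 in the Chimira table. With the pair exchanged in the Chimira table it gave edgeR adjusted p = 0.0561. Comparing 10 d with 6 h directly, the vector line had log2 fold changes of 0.50 for miR-34a-5p and 0.52 for miR-34c-5p (edgeR adjusted p = 0.118 and 0.0739, 11.9% of miRNAs called). The α1ACT line had 0.29 and 0.11 (edgeR adjusted p = 0.254 and 0.640, 27.1% called). The vector values contain both libraries of the doubtful pair. For miR-34c-5p the value was 0.09 with the pair exchanged, 0.26 with it left out and 0.04 in the Chimira table. With the pair exchanged in the Chimira table it was 0.47 (edgeR adjusted p = 0.0711). The miR-34c-5p value ran from 0.24 to 0.71 over omissions of 1 library and was called under 4 of 37 alternatives. For miR-34a-5p it was 0.35 with the pair exchanged, 0.46 with it left out and 0.31 in the Chimira table. Exchanging the pair there gave 0.46.

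Ordered by mean level, both members were highest in the α1ACT line at 3 d and lowest in the vector line at 6 h. For miR-34a-5p the order below the top was vector 3 d, α1ACT 10 d, α1ACT 24 h, α1ACT 6 h, vector 10 d and vector 24 h. Every neighbouring pair in that order overlapped except vector 24 h and vector 6 h. For miR-34c-5p the order was α1ACT 24 h, α1ACT 10 d, vector 3 d, α1ACT 6 h, vector 10 d and vector 24 h, and only the top pair of neighbours did not overlap (lowest 77.6 CPM against highest 77.5 CPM).

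The ratio of the 2 members within a library needs no scaling between libraries. Its mean log2 value (miR-34c-5p over miR-34a-5p) was -0.04, -0.06, -0.32 and 0.02 from 6 h to 10 d in the vector line, and 0.07, 0.22, -0.05 and -0.09 in the α1ACT line. The α1ACT ratio was higher by 0.14 on average, with a 95% interval of -0.01 to 0.29 (the shifts that the test below does not refuse). An exact two-sided permutation test of the line within each time gave p = 0.0754 (80000 arrangements), or 0.151 after Benjamini-Hochberg adjustment over 4 ratio tests. Whether the line difference is unlike in the 2 members was thus not resolved, and the interval leaves room for a gap of up to 0.29. The SD within groups, 0.16, was no larger than the 0.18 that read counting alone gives, so depth limits this ratio.

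**Figure D4:**
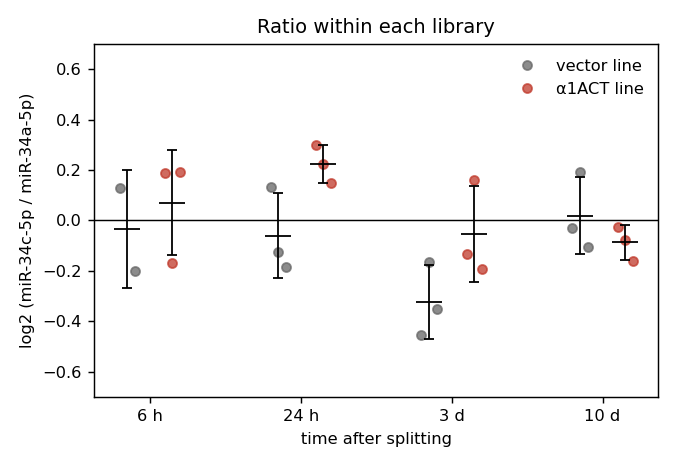
Log2 ratio of miR-34c-5p to miR-34a-5p reads (y axis) in each library by time after splitting (x axis), with the mean and SD of each group in black. Most libraries lie within 0.3 of equality, and the vector libraries at 3 d are the lowest group, with a mean of -0.32.

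The miR-34b arms gave too few reads for a test. miR-34b-5p had 33 reads over the 11 vector libraries and 43 over the 12 α1ACT libraries, with 0 to 8 reads in a library. miR-34b-3p had 20 and 29 reads, with 0 to 5 in a library. The smallest value above 0 in the sRNAbench table was 2, so a listed 0 may stand for a single read.

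The passenger arm miR-34a-3p could be tested only in the Chimira table, where 3 of 305 tested miRNAs belonged to the family. In the vector line its mean was 2.63, 3.07, 9.29 ± 4.53 and 4.21 CPM from 6 h to 10 d. In the α1ACT line it was 4.44, 5.63, 7.33 ± 1.97 and 2.82 ± 0.325 CPM. Like its partner arm it was highest at 3 d in both lines. The F test over times gave edgeR adjusted p = 0.0367 in the vector line (18.4% of miRNAs called in this table) and 0.0292 in the α1ACT line (39.3% called). Each call was lost under 7 of 32 alternatives, with adjusted p up to 0.128 in the vector line (without vector 3 d replicate 3) and 0.0976 in the α1ACT line (without α1ACT 3 d replicate 2). The vector call was made with the pair exchanged (0.0246) and left out (0.0148). Between the lines the log2 fold change was 0.26 (edgeR adjusted p = 0.454). Levels rested on 4 to 29 reads in a library, and the highest value, 14.5 CPM, belongs to the shallow vector library of 3 d with 7 reads.

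**Figure D5:**
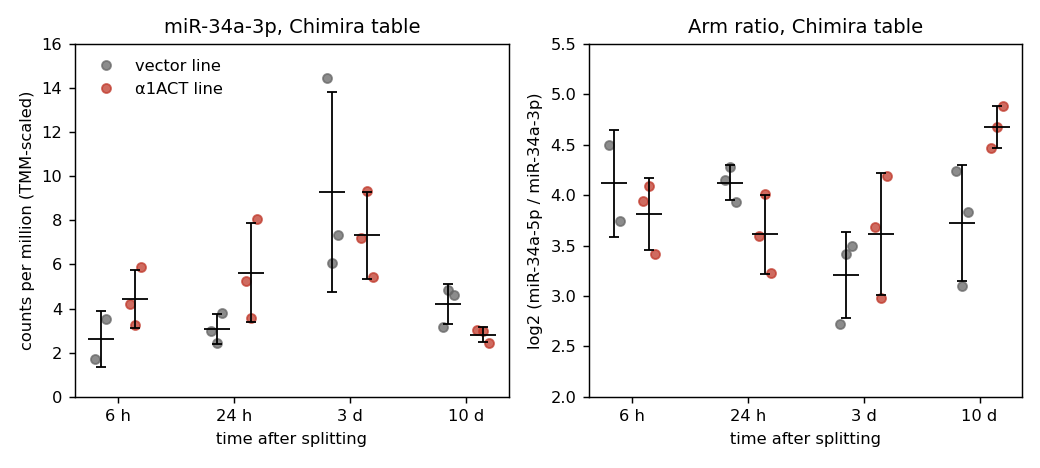
Left, miR-34a-3p in TMM-scaled CPM of the Chimira table (y axis) by time after splitting (x axis). Right, the log2 ratio of miR-34a-5p to miR-34a-3p in the same libraries; points are libraries and black bars the mean and SD, and the α1ACT libraries at 10 d have the highest mean ratio, 4.67.

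The 5p arm of miR-34a exceeded the 3p arm by a mean log2 ratio of 3.79 in the vector line and 3.93 in the α1ACT line in that table. The line difference of 0.14 gave p = 0.530 in the exact permutation test. Over the times of the α1ACT line the ratio gave exact permutation p = 0.0493, and 0.151 after adjustment over the 4 ratio tests. In the vector line exact permutation p was 0.129 (adjusted 0.171). Most of this spread was of the size of counting error, with a within-group SD of 0.43 against 0.47 from counting.

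The levels of both members were correlated. Across the 23 libraries, which share depth and scaling, the Pearson correlation of log2 CPM (a description, with no test) between miR-34a-5p and miR-34c-5p was 0.84, and 0.73 after group means were removed. Among 220 other miRNAs averaging 10 CPM or more, those most like miR-34a-5p were miR-24-3p (0.70), miR-542-5p (0.70) and miR-488-3p (0.69). Those most like miR-34c-5p were miR-488-3p (0.74), miR-708-3p (0.70) and miR-181a-5p (0.61). Only miR-488-3p stood in both sets, at a mean of 10.7 CPM. After group means were removed its correlation was 0.79 with miR-34a-5p and 0.70 with miR-34c-5p. It then followed miR-34a-5p at least as closely as miR-34c-5p did. The correlation with miR-34a-5p was then 0.26 for miR-24-3p and 0.48 for miR-542-5p. That with miR-34c-5p was 0.63 for miR-708-3p and 0.18 for miR-181a-5p.

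Other miRNAs tied to p53 were read in the same mean comparison. Of 11 entries of further p53 transcription targets, 4 could be tested and 1 rose, against 6.69% of all tested miRNAs, namely miR-192-5p (log2 fold change 0.16, edgeR adjusted p = 0.0195). miR-194-5p, from a shared cluster, had 0.16 (edgeR adjusted p = 0.110) and miR-107-3p had -0.04. The median of the 4 was 0.16, and with the vector pair exchanged, or in the Chimira table, 0 were called by edgeR (2 in each at an unadjusted p under 0.05). Of 3 tested arms of hairpins whose processing p53 is known to aid, 1 fell (background 5.95%). This was miR-143-3p (-0.76, edgeR adjusted p = 0.000139), which is also a mesenchymal marker. miR-16-5p of the same list had -0.10.

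miRNAs on the other side of the p53 circuit were also read. The list of miRNAs known to target the p53 transcript was matched by hairpin name, so it holds both arms of miR-125b, miR-25 and miR-30d. Of its 7 tested arms, 2 fell, against 5.95% of all tested miRNAs. These were miR-25-3p (-0.18, edgeR adjusted p = 0.0195) and miR-30d-5p (-0.13, edgeR adjusted p = 0.0490). The other list members, miR-125b-5p among them at 0.12, were not called. With the vector pair exchanged, or with library totals as the scaling, none of the 7 was called by edgeR, and 3 and 0 respectively had an unadjusted p under 0.05. The miR-17-92 cluster, which p53 is known to repress, had 10 tested arms and 0 calls by edgeR, with 1 at an unadjusted p under 0.05. DESeq2 called 1 of them, miR-92a-3p (-0.17 in edgeR, adjusted p = 0.0636), and limma-voom called 0. All 10 arms had negative values, with a median of -0.15, but 2 turned positive with upper-quartile scaling and with library totals.

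Markers of the cells were read beside these results. The neuroendocrine list had 6 tested members, 3 with positive and 3 with negative values in the mean comparison. By edgeR 1 of them rose, miR-9a-5p, against 6.69% of all tested miRNAs. DESeq2 called 1 higher and 1 lower, miR-9a-5p and miR-375-3p. With the Chimira counts none of the 5 tested members was called by edgeR. The 10 entries of the neuroendocrine list summed to 161907 to 218562 CPM in vector libraries and 142884 to 207148 CPM in α1ACT libraries. The most abundant were miR-375-3p, with 77216 to 763648 reads in a library, and miR-182, with 12693 to 165396. Of the others miR-9a-5p had the most, 15 to 264 reads, and miR-124-3p was listed at 0 in 22 libraries. The mesenchymal list had 5 entries, summing to 399 to 1322 CPM in vector and 303 to 786 CPM in α1ACT libraries. Of these, 2 were tested. miR-143-3p fell as above, while miR-199a-3p was not called, with a positive value here and a negative one in the Chimira table. miR-145-5p was listed at 0 in 22 of 23 libraries. Blood markers had 5 entries, 1 of them tested, with a summed level from 0 to 8.53 CPM in vector and 0 to 9.96 CPM in α1ACT libraries. Among these entries miR-223-3p was listed at 0 in 22 libraries. The part of these markers in the miR-34 difference was not tested.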

How the data were processed

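Small RNA reads from 23 PC12 libraries were analysed from 2 tables of whole-number counts per mature miRNA, as the authors deposited them and without normalization. The table names point to sRNAbench (413 entries, the main table) and Chimira (627 entries). edgeR is named without a version, per the submitters' processing notes, and the sources used here give no aligner or build. Control columns were taken as the vector line and WT columns as the α1ACT line, and 12 further columns of each table were not used. The sRNAbench table has 1 unnamed entry with 0 counts, 0% of the total, left out.

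Counts were fitted in edgeR 4.0.16 (R 4.3.3) with filterByExpr, TMM scaling, 1 mean per group and robust quasi-likelihood tests, adjusted over all tested miRNAs, with calls at adjusted p under 0.05. Ratios within libraries had exact permutation tests. Named miRNAs were all family entries, up to 4 members of each list by smallest p, and the 3 most correlated miRNAs for each main member. Members and lists were chosen with earlier results of these data known. The fits were tested on simulated data. Alternatives were the other table, other scalings and filters, DESeq2 1.42.0, limma-voom 3.58.1, a replicate block, the compared groups alone and each library left out. The exchange of the vector pair in the Chimira table, and leaving out the pair with the shallow 3 d library, were chosen after seeing the data.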

Additional observations from a re-analysis of the deposited data

How the results depend on the processing

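The mean log2 fold change of miR-34a-5p lost its call with the vector pair exchanged (0.32), the pair left out (0.28) or the pair and vector 3 d replicate 1 left out (0.31), and ran from 0.28 to 0.38 over 23 omissions of 1 library. Its time test gave adjusted p = 0.114 in the vector line with the pair and vector 3 d replicate 1 left out. In the α1ACT line it gave 0.0721 (Chimira), 0.236 (upper quartile), 0.0538 (library totals), 0.0650 (no filter), 0.0595 (limma-voom) and 0.0815 (pair exchanged), and 0.0199 to 0.174 over omissions. For miR-34c-5p in the vector line it was 0.0289 with at least 10 counts in every library and 0.0235 to 0.436 over omissions. The ratio difference lay between 0.10 and 0.18 over omissions, with exact permutation p = 0.0264 without α1ACT 6 h replicate 2, 0.0299 without vector 10 d replicate 2, 0.0315 without vector 6 h replicate 1 and 0.0491 without vector 24 h replicate 1. Signs turned for miR-34a-5p at 3 d (-0.047 without vector 3 d replicate 2; range -0.047 to 0.31), for miR-34c-5p from 6 h to 10 d in the α1ACT line (-0.033 without α1ACT 6 h replicate 2; range -0.033 to 0.18) and for miR-34a-3p at 3 d (0.00226 with library totals, 0.00769 with the pair left out, and -0.25 to 0.13 over omissions, including 0.00614, 0.0147, 0.128 and 0.130).

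Replicate numbers did not pair the samples: 3 of 11 same-numbered pairs correlated above 0.1 (r from -0.71 to 0.66). With the replicate block, miR-34c-5p over time in the vector line had adjusted p = 0.0216, miR-34a-3p at 3 d had a log2 fold change of 0.00792, and called miRNAs numbered 1 at 6 h and 3 at 24 h.

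Counts of called miRNAs for the mean were 34 as reported, 19 (Chimira), 18 (exchanged), 16 (pair out), 14 (pair and vector 3 d replicate 1 out) and 16 to 40 over omissions; higher and lower calls were 43 and 5 with upper-quartile scaling, 36 and 5 with library totals, and 10 and 22 with at least 10 counts in every library. Upper-quartile scaling moved the median of all miRNAs to 0.22 at 6 h. At 6 h, where 0 were called, the counts were 2 (upper quartile), 1 (no filter), 3 (DESeq2), 2 (compared groups alone) and 0 to 7 over omissions. At 24 h the count of 1 became 3 (DESeq2-style factors, DESeq2, groups alone), 2 (upper quartile, library totals, pair out, with or without vector 3 d replicate 1, and Chimira exchanged), 0 (limma-voom) and 0 to 2 over omissions. At 3 d the count of 1 became 0 (Chimira, as labelled or exchanged, upper quartile, limma-voom), 5 (at least 10 counts), 6 (DESeq2), 2 (pair out, groups alone) and 0 to 5 over omissions. At 10 d the count of 4 became 11 (Chimira, groups alone), 10 (DESeq2), 7 (pair out, with or without vector 3 d replicate 1) and 0 to 6 over omissions. For 10 d against 6 h in the vector line 32 became 0 (Chimira, exchanged), 60 (upper quartile), 11 (pair out), 10 (also without vector 3 d replicate 1) and 16 to 41 over omissions. Time within the vector line went to 56 (Chimira) and 46 (exchanged), and the interaction from 0 to 2 (Chimira, DESeq2, exchanged), 1 (upper quartile, at least 10 counts, pair out, with or without vector 3 d replicate 1) and 0 to 4 over omissions. Depth limits the miR-34b arms and miR-34a-3p.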
